A study of Mus musculus with 3 samples.

Results

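The genes described here are the collagen chain genes of the mouse, taken as every probe set whose single annotated symbol reads Col, a number, the letter a and a number. The rule found 47 probe sets for 44 genes, out of 41345 probe sets and 22180 named genes on the array. RNA was hybridised once for each of 3 samples: FULA 1 cells, a mouse lung adenocarcinoma line grown in DMEM with fetal bovine serum; lung of FVB mice 1 week after an intraperitoneal injection of urethane, a carcinogen that gives lung tumours in mice; and lung of FVB mice injected with saline. The age of the mice, the number of mice behind each lung array, the time at which the saline lung was taken and whether FULA 1 is a single clone are not stated in the labels. Both lungs share the FVB background and differ in the agent injected. With 1 array per group no test was possible, so every difference below describes these arrays and has no replicate spread to be set against.

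Collagens are trimers of alpha chains whose central part repeats glycine regularly, which lets the 3 chains wind into a triple helix. Fibrillar chains form the ropes of the interstitium, type IV chains form the sheet of basement membranes, and the other classes decorate fibrils, form beaded filaments or networks, or sit in cell membranes with a collagenous outer part. In lung, fibroblasts and smooth muscle make most of the fibrillar collagen, while epithelium and endothelium share a basement membrane at the alveolar wall.

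The deposited log2 values of the 3 arrays were not on one scale, with medians of 4.96 on FULA 1, 1.22 on the urethane lung and 0.08 on the saline lung. Each chain is therefore given by its percentile rank among all probe sets of its own array, which no monotone scaling changes, and by its value after quantile normalization (normalized value, log2). A background mark was set on each array at the 95th percentile of the 1088 genes of the olfactory receptor family, silent in most tissues. It lay at a percentile rank of 46.3 on FULA 1, 58.9 on the urethane lung and 59.2 on the saline lung, and at normalized values of 1.95, 2.42 and 2.44 on these arrays in the same order. A value below the mark was held at the mark, so that a difference with 1 such value is a bound, and a chain that reached the mark on neither array has no size. The threshold for calling a chain higher or lower was 2-fold. Levels of different chains are not ranked against each other, since probe sets differ in brightness.

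Fewer collagen chains stood above background in FULA 1 than in either lung, although more genes did so in all. On FULA 1, 23 of the 44 chains lay above the mark, against 28 on the urethane lung and 29 on the saline lung; over all genes the share above the mark was 58.5% on FULA 1, 49.3% on the urethane lung and 50.1% on the saline lung. Against the saline lung, 18 chains were lower in FULA 1 by 2-fold or more and 0 were higher, where 11.2% of all genes were called lower and 10.9% higher. Against the urethane lung, 14 chains were lower and 0 higher, where 9.79% of all genes were called lower and 10.4% higher. The same FULA 1 array enters both counts. FULA 1 is a cultured line and the lungs are tissue of many cell types, so fewer cells of a type, less RNA per cell and the effect of culture cannot be told apart. Of the 18 chains lower than in the saline lung, 10 were above the mark on both arrays and 8 are bounds, and 6 of the 18 lay within 0.1 of the threshold on the log2 scale. Of the 44 chains, 18 were called in at least 1 comparison, 15 stood above the mark on some array but were called in none, and 11 were below it on all 3.

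The percentile ranks do not depend on the scaling. The background mark itself, however, lay at a lower rank on FULA 1 (46.3) than on the urethane lung (58.9) and the saline lung (59.2). A rank difference alone therefore does not show a lower level. The normalized values follow these ranks, and their mark was also lower on FULA 1 (1.95) than on the urethane lung (2.42) and the saline lung (2.44). A normalized difference near the threshold carries the same limit, so those calls do not alone show a lower level either. The rank differences rest on the same arrays and also include chains below the mark on every array, such as Col11a1, Col4a4 and Col12a1. In FULA 1, 37 of the 44 chains ranked lower than in the saline lung and 7 higher, where 55.4% of all genes ranked lower and 44.6% higher. The median rank difference over the 44 chains was -17.5 points (FULA 1 minus saline lung), against -1.85 over all genes. Set against the urethane lung it was -15.6 points, against -1.31 over all genes, with 37 chains ranking lower and 7 higher, where 54.1% of all genes ranked lower and 45.9% higher. The split of calls moved with the scaling: with each array only shifted to a common median, FULA 1 had 3 chains higher and 8 lower against the saline lung, where 30.4% of all genes were higher and 4.62% lower, and 3 higher and 9 lower against the urethane lung, where 30.6% were higher and 4.30% lower. The 3 higher chains under that shift were Col4a2, Col8a1 and Col18a1 in both comparisons. In the values as deposited, 23 chains were higher than in the saline lung and 22 than in the urethane lung, with 0 lower in either, while 58.1% of all genes were higher than in the saline lung and 57.9% than in the urethane lung. Each of the chains called lower kept its direction under the shift to a common median, the FULA 1 quantiles and the lowess correction, but not each its size. Under the shift Col2a1, Col5a3, Col11a2, Col27a1, Col4a3, Col9a1, Col9a2, Col9a3, Col17a1 and Col23a1 were no longer 2-fold lower than in the saline lung, and Col5a3, Col27a1, Col4a3, Col8a2 and Col9a2 no longer so against the urethane lung. With the lowess correction the threshold was missed by Col2a1, Col11a2, Col4a3, Col8a2, Col9a1, Col9a3, Col13a1 and Col17a1 against the saline lung, and by Col4a3 and Col8a2 against the urethane lung.

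**Figure D1:**
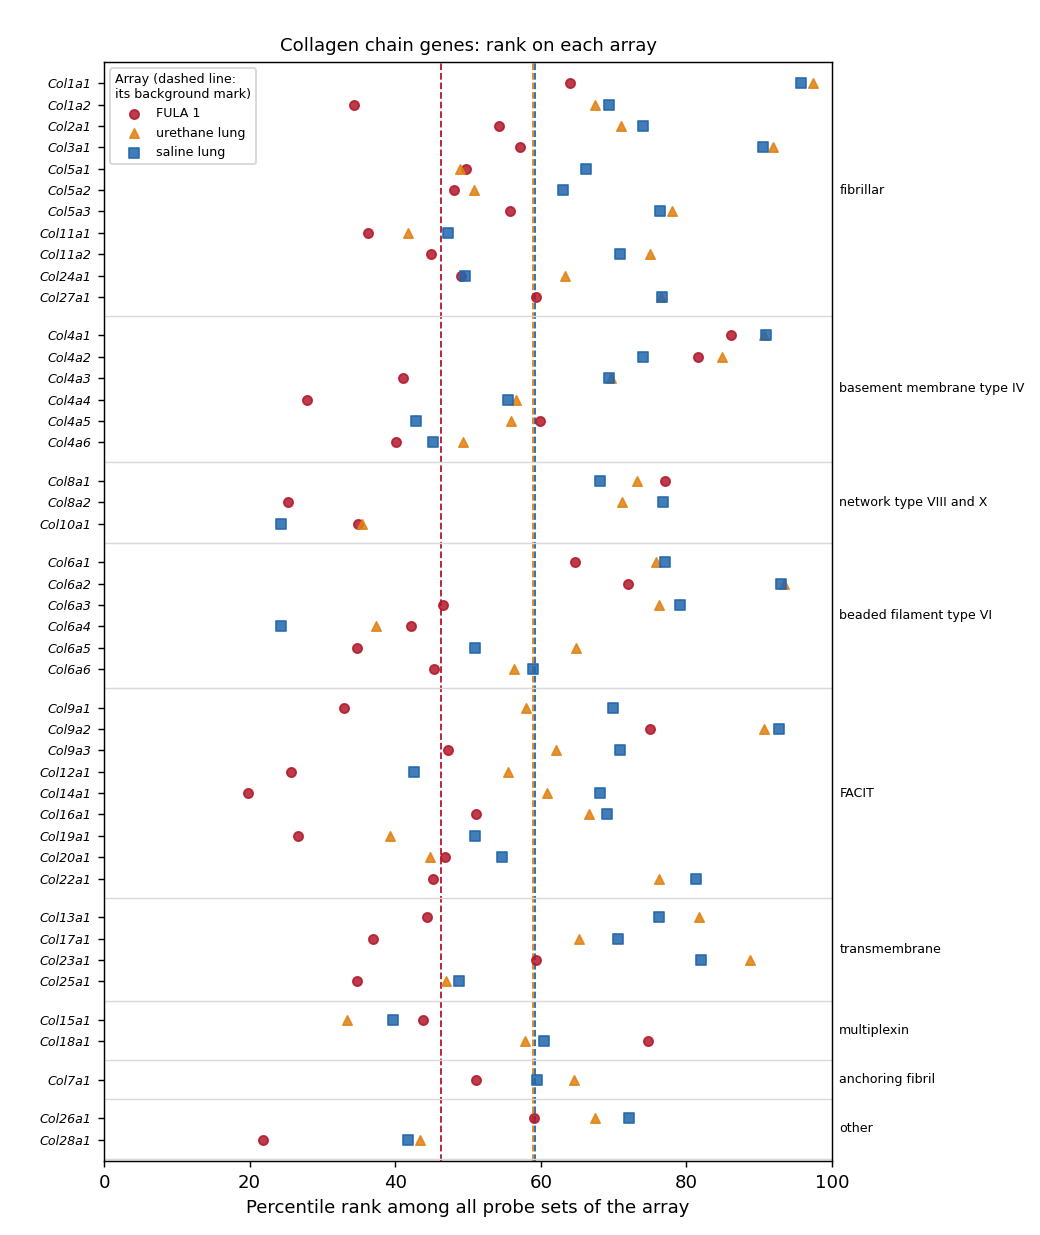
Percentile rank of the 44 collagen chain genes among all probe sets of the FULA 1 array (circles), the urethane lung array (triangles) and the saline lung array (squares), by collagen class; a chain with 2 probe sets is shown at their mean rank. Dashed lines mark the background mark of each array (46.3, 58.9 and 59.2); most circles lie left of the lung symbols, while Col8a1 and Col18a1 lie to their right.

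Of 11 fibrillar chains, 7 were called lower in FULA 1 against the saline lung and 6 against the urethane lung, where 11.2% and 9.79% of all genes were. The chains of types I and III were lower by the most. Col1a1 encodes the chain that makes up most of type I collagen, the main fibre of connective tissue, and its normalized value was 2.67 on FULA 1, 6.98 on the urethane lung and 6.27 on the saline lung. Its percentile rank was 64.0 on FULA 1, 97.4 on the urethane lung and 95.7 on the saline lung. Col1a1 was above background on the FULA 1 array, yet 19.9-fold lower there than in the urethane lung and 12.2-fold lower than in the saline lung. Col3a1, the chain of type III collagen, which is abundant in distensible tissue, had normalized values of 2.35 on FULA 1, 5.27 on the urethane lung and 5.02 on the saline lung. Its FULA 1 value was 7.56-fold lower than in the urethane lung and 6.35-fold lower than in the saline lung.

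Col1a2, the partner of Col1a1 in type I collagen, was read by 2 probe sets. The first ranked at 54.6 on FULA 1, 93.8 on the urethane lung and 94.7 on the saline lung, with a normalized difference of -3.71 (FULA 1 minus saline lung). The second ranked at 14.2 on FULA 1, 41.2 on the urethane lung and 44.0 on the saline lung, under the mark on each. With the mean of both, used in the counts, Col1a2 in FULA 1 was at least 3.49-fold lower than in the urethane lung and at least 3.94-fold lower than in the saline lung. The stretches just before the annotated starts of Col1a2 and Col3a1 are printed here because these fibrillar chains were lower together in FULA 1. They are the 250 bases before the start from RefSeq, build GRCm38.p6, both on the + strand, with capitals marking matches to 3 common promoter motifs: the TATA box (TATAAA), the CCAAT box (CCAAT) and the GC box (GGGCGG), searched on both strands. Col1a2 lies at chr6:4505368-4505617 and Col3a1 at chr1:45311288-45311537.
Col1a2: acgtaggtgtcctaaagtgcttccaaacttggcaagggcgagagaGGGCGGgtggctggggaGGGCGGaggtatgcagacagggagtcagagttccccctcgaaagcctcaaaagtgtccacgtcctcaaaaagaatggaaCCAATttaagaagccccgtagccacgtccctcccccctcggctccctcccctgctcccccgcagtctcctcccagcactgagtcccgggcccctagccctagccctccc
Col3a1: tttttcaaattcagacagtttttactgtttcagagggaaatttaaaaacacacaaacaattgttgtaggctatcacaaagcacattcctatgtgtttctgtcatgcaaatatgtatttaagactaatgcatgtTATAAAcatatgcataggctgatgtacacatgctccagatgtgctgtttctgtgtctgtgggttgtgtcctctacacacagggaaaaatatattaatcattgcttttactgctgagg
The Col1a2 stretch held 2 GC boxes, beginning 205 and 188 bases before the start, and 1 CCAAT box, beginning 109 bases before it. The Col3a1 stretch held 1 TATA box, beginning 117 bases before the start, and neither of the others. Of 32851 such windows over all genes, 32.7% held a GC box, 33.8% a CCAAT box and 12.4% a TATA box. Among the 38 windows of the 35 chains that the promoter table holds, 57.9% held a GC box, 34.2% a CCAAT box and 13.2% a TATA box.

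The smaller fibrillar chains differed less. Type V chains join type I fibrils and limit their width. Col5a3 ranked at 55.8 on FULA 1, 78.0 on the urethane lung and 76.4 on the saline lung, and in FULA 1 was 2.40-fold lower than in the urethane lung and 2.22-fold lower than in the saline lung. Col5a2 lay near the mark everywhere, with ranks of 48.1 on FULA 1, 50.8 on the urethane lung and 63.1 on the saline lung, and was called in no comparison. Col5a1 had 2 probe sets: the first ranked at 74.2 on FULA 1, 85.3 on the urethane lung and 82.8 on the saline lung, and the second at 25.3, 12.6 and 49.7 on the same arrays. The gene as a whole was called in no comparison. Col11a2, a chain of the type XI collagen of cartilage fibrils, ranked at 45.0 on FULA 1, 75.0 on the urethane lung and 70.9 on the saline lung. In FULA 1 it was at least 2.60-fold lower than in the urethane lung and at least 2.15-fold lower than in the saline lung. Its partner Col11a1 was below the mark on all 3 arrays. Col27a1, also a cartilage collagen, ranked at 59.4 on FULA 1 and at 76.6 on each lung, and lay at the threshold, 2.01-fold lower in FULA 1 against either lung. Col2a1, the main chain of cartilage fibrils, ranked at 54.2 on FULA 1, 71.0 on the urethane lung and 74.0 on the saline lung. It differed by -0.83 from the urethane lung and by -1.02 from the saline lung (log2), the second past the threshold. Col24a1 stood above the mark on FULA 1 and the urethane lung only, with a difference of -0.58.

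Both lung arrays held Col2a1, Col27a1 and Col11a2 above background, while few of the other cartilage markers stood there. Of 7 cartilage markers, only Snorc was above the mark on the urethane lung, and Snorc, Matn3 and Cnmd were on the saline lung. The cartilage proteoglycan gene Acan ranked at 44.8 on the urethane lung and 41.8 on the saline lung, and Comp, Matn1 and Hapln1 were below the mark on both. On FULA 1, Acan ranked at 95.1 and was at least 12.6-fold higher than in the saline lung, and each of the other 6 cartilage markers was below the mark.

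FACIT collagens lie on the surface of fibrils and link them to other matrix. In FULA 1, 4 of 9 were called lower than in the saline lung and 2 than in the urethane lung, where 11.2% and 9.79% of all genes were. Among the type IX chains of cartilage and eye, Col9a2 had normalized values of 3.33 on FULA 1, 5.03 on the urethane lung and 5.46 on the saline lung, and in FULA 1 was 3.24-fold lower than in the urethane lung and 4.37-fold lower than in the saline lung. Under the shift to a common median these differences were -0.36 and -0.87 (log2), both short of the threshold. Col9a3 ranked at 47.3 on FULA 1, 62.0 on the urethane lung and 70.9 on the saline lung, and Col9a1 at 32.9, 57.9 and 69.9 on these arrays. In FULA 1, Col9a3 was 2.10-fold lower than in the saline lung and Col9a1 at least 2.05-fold lower; against the urethane lung Col9a3 differed by -0.59, and Col9a1 was below the mark on both arrays. Col22a1, a collagen of tissue junctions, ranked at 45.2 on FULA 1, 76.2 on the urethane lung and 81.3 on the saline lung. Its FULA 1 value was at least 2.78-fold lower than in the urethane lung and at least 3.70-fold lower than in the saline lung. Col14a1 and Col16a1 missed the threshold, with differences from the saline lung of -0.94 (a bound) and -0.81. Col12a1 and Col19a1 were below the mark on all 3 arrays, and Col20a1 was just above it on FULA 1 alone, at a rank of 46.9.

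Of 6 basement membrane chains, 1 was called lower in FULA 1 than in each lung. Over all genes 11.2% were lower than in the saline lung and 9.79% than in the urethane lung. Col4a1 and Col4a2 form the type IV collagen found under nearly every epithelium and endothelium, and both ranked high on all 3 arrays. Col4a1 ranked at 86.1 on FULA 1, 90.6 on the urethane lung and 90.9 on the saline lung. Col4a2 ranked at 81.6 on FULA 1, 84.9 on the urethane lung and 74.1 on the saline lung. Neither was called in any comparison: Col4a1 differed by -0.71 and Col4a2 by 0.60 (FULA 1 minus saline lung), and by -0.67 and -0.35 against the urethane lung. Under the shift to a common median Col4a1 became positive, at 0.94 against the urethane lung and 0.86 against the saline lung. Col4a2 did so against the urethane lung (1.11). With the lowess correction Col4a1 was -1.02 against the saline lung, past the threshold, and -0.92 against the urethane lung. These directions are therefore not settled. Col4a2 against the saline lung was positive under each scaling, from 0.22 to 2.02.

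Col4a1 and Col4a2 are transcribed in opposite directions from a shared start region. In the RefSeq promoter table (GRCm38.p6, chromosome 8) the start of Col4a2 on the + strand lies 21 bases to the left of that of Col4a1 on the - strand, so the first bases of the transcripts overlap. Between the lungs Col4a2 differed by 0.95 (urethane lung minus saline lung) and Col4a1 by -0.05, a value whose sign changed with the scaling. On the urethane lung array 172 other probe sets shared the deposited value of Col4a2 and 70 others that of Col4a1, so these values are coarse.

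Whether the chains of the mature alveolar basement membrane went together in FULA 1 cannot be told, since they gave only bounds or no size. Col4a3 and Col4a4 trimerise with Col4a5 in the glomerulus and the alveolus, and Col4a3 carries the antigen of Goodpasture disease. Col4a3 ranked at 41.0 on FULA 1, 69.6 on the urethane lung and 69.4 on the saline lung, and in FULA 1 was at least 2.02-fold lower than in the urethane lung and at least 2.01-fold lower than in the saline lung. Both are bounds at the threshold itself. Col4a4 was below the mark on all 3 arrays and has no size, with ranks of 27.9 on FULA 1, 56.6 on the urethane lung and 55.5 on the saline lung. Col4a5, in contrast, was above the mark on FULA 1 alone, with a rank of 59.9 there, against 55.9 on the urethane lung and 42.9 on the saline lung. Its difference from either lung is only a bound near 0. Col4a6, the neighbour of Col4a5, was below the mark on all 3 arrays.

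Type VIII collagen forms hexagonal networks in vessel walls and under the corneal endothelium, and its chains went apart. Col8a1 ranked at 77.1 on FULA 1, 73.2 on the urethane lung and 68.1 on the saline lung, and differed by 0.28 from the urethane lung and by 0.60 from the saline lung, both under the threshold. The first of these turned to -0.02 with the lowess correction. Col8a2 ranked at 25.2 on FULA 1, 71.2 on the urethane lung and 76.8 on the saline lung, and in FULA 1 was at least 2.18-fold lower than in the urethane lung and at least 2.86-fold lower than in the saline lung. Col10a1, the network collagen of hypertrophic cartilage, was below the mark on all 3 arrays. The 250 bases before the starts of both type VIII genes are printed in the same way (RefSeq, GRCm38.p6), because these partners differed in the line. Col8a2 lies at chr4:126286544-126286793 on the + strand and Col8a1 at chr16:57754738-57754987 on the - strand.
Col8a2: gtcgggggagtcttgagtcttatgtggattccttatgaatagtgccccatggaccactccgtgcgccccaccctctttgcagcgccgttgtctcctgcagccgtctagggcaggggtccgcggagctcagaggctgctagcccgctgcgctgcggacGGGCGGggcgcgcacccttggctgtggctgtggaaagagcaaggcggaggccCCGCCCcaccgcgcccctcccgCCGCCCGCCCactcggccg
Col8a1: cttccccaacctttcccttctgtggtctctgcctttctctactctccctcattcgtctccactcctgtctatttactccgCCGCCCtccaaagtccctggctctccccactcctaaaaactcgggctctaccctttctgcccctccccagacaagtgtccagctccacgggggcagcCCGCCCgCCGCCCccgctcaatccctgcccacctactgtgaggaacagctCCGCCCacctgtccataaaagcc
Each stretch held 4 GC boxes, 1 of those of Col8a2 on the strand of the gene and the rest on the other strand, so that they appear as CCGCCC in the lines printed, and 2 of those of Col8a2 overlap. Neither held a CCAAT or TATA box as spelled here.

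Type VI collagen forms beaded filaments around cells, from a chain each of Col6a1, Col6a2 and Col6a3 or one of its relatives. Col6a2 had normalized values of 3.12 on FULA 1, 5.61 on the urethane lung and 5.51 on the saline lung, and in FULA 1 was 5.61-fold lower than in the urethane lung and 5.23-fold lower than in the saline lung. Col6a3 ranked at 46.5 on FULA 1, 76.2 on the urethane lung and 79.1 on the saline lung, and in FULA 1 was 2.76-fold lower than in the urethane lung and 3.21-fold lower than in the saline lung. Col6a1 was called against neither lung. The first of its 2 probe sets ranked at 93.8 on FULA 1, 93.1 on the urethane lung and 94.2 on the saline lung, and differed by 0.16 (FULA 1 minus urethane lung) and -0.12 (FULA 1 minus saline lung) on the normalized scale. The second ranked at 35.6, 58.6 and 60.0 on these arrays and differed by -0.75 and -0.82. The gene as a whole, at -0.30 and -0.47, was 0.41 and 0.17 under the shift to a common median but -1.18 and -1.67, past the threshold, with the lowess correction. One further probe set, annotated to Col6a1 together with other genes, was not used. Of the relatives of Col6a3, Col6a4 and Col6a6 were below the mark on all 3 arrays, and Col6a5 was above it on the urethane lung alone (rank 64.8).

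The transmembrane collagens above background were lower in FULA 1 too. Col23a1 had normalized values of 2.45 on FULA 1, 4.71 on the urethane lung and 3.92 on the saline lung, and in FULA 1 was 4.78-fold lower than in the urethane lung and 2.77-fold lower than in the saline lung. Col13a1, which sits at cell adhesions and the neuromuscular junction, ranked at 44.4 on FULA 1, 81.7 on the urethane lung and 76.3 on the saline lung. In FULA 1 it was at least 3.80-fold lower than in the urethane lung and at least 2.79-fold lower than in the saline lung. Col17a1, the hemidesmosome collagen that ties basal epithelial cells to their basement membrane, ranked at 37.0 on FULA 1, 65.3 on the urethane lung and 70.6 on the saline lung. In FULA 1 it was at least 2.13-fold lower than in the saline lung, and its bound against the urethane lung, -0.79, missed the threshold. Col25a1 was below the mark on all 3 arrays.

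Col18a1, the basement membrane collagen from which endostatin is cleaved, was the chain with the largest positive difference on FULA 1. It ranked at 74.8 on FULA 1, 57.8 on the urethane lung and 60.5 on the saline lung. The difference was 0.81 from the saline lung and at least 0.90 from the urethane lung (log2), under the 2-fold threshold, and positive under each other scaling. It passed the threshold against both lungs under the shift to a common median (1.79 against each) and with the FULA 1 quantiles (1.43 from the urethane lung, and less from the saline lung). Col15a1, its relative among the multiplexins, was below the mark on all 3 arrays, as was Col28a1. Col7a1, the anchoring fibril chain, differed by -0.58 from the urethane lung and -0.33 from the saline lung. Col26a1 differed by -0.43 from the urethane lung, which became 0.05 under the shift to a common median, and by -0.69 from the saline lung.

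**Figure D2:**
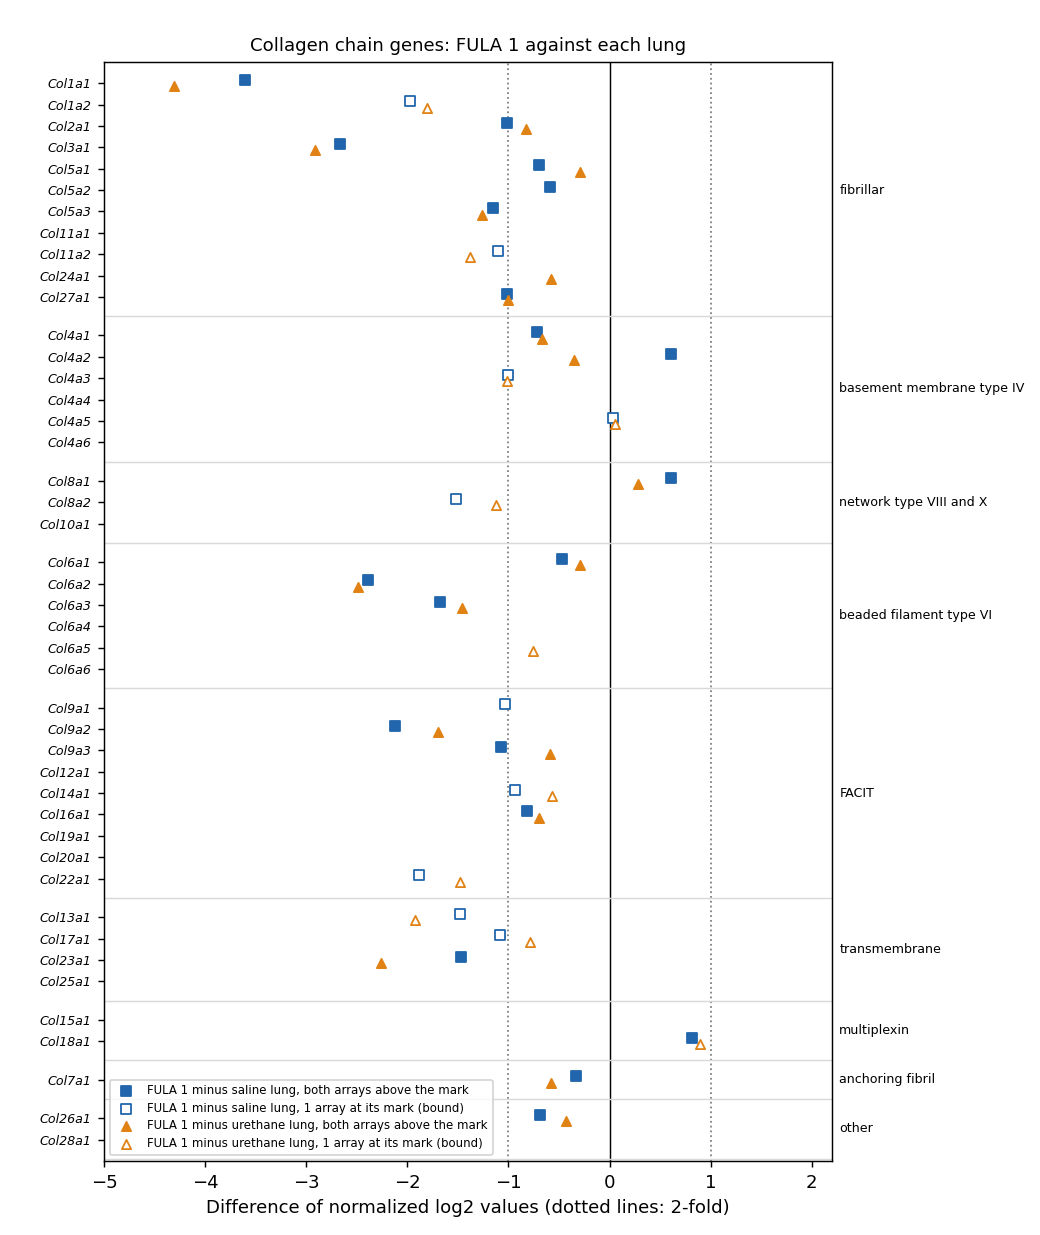
Difference of normalized log2 values of each collagen chain gene, FULA 1 minus saline lung (squares) and FULA 1 minus urethane lung (triangles); open symbols are bounds with 1 array at its background mark, and chains with no symbol were given no size. The 18 and 14 chains called lower lie left of the dotted line at -1, Col1a1 farthest at -3.61 and -4.31, and no symbol lies right of the line at 1.

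Between the lungs the collagen chains were close, as were genes in general. In the urethane lung 0 of the 44 chains were called higher or lower than in the saline lung. Of all genes, 1.18% were called higher and 0.433% lower, so a count of 0 does not set the chains apart. The median normalized difference over the 44 chains was -0.06 (urethane lung minus saline lung), against -0.06 over all genes, and 24 chains ranked lower and 20 higher, where 55.6% of all genes ranked lower and 44.4% higher. In the values as deposited, whose medians differ between the lungs as given above, 20 chains were higher and 0 lower, where 33.0% of all genes were higher. The largest positive differences were those of Col4a2 at 0.95, Col23a1 at 0.79 and Col1a1 at 0.71. They stayed positive under each other scaling, between 0.87 and 1.22 for Col4a2, between 0.83 and 0.88 for Col23a1 and between 0.28 and 0.75 for Col1a1. Col1a2 did not share the difference of Col1a1: its first probe set differed by -0.27 and its second by -0.09. Col3a1 differed by 0.25. The 6 FACIT chains with a size lay below 0, from -0.56 for Col9a1 (a bound) to -0.11 for Col16a1, which turned to 0.00 under the shift to a common median. Col9a3 differed by -0.48, Col9a2 by -0.43 and Col22a1 by -0.41. With 1 lung array on each side, a difference between mice cannot be told apart from one between treatments.

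**Figure D3:**
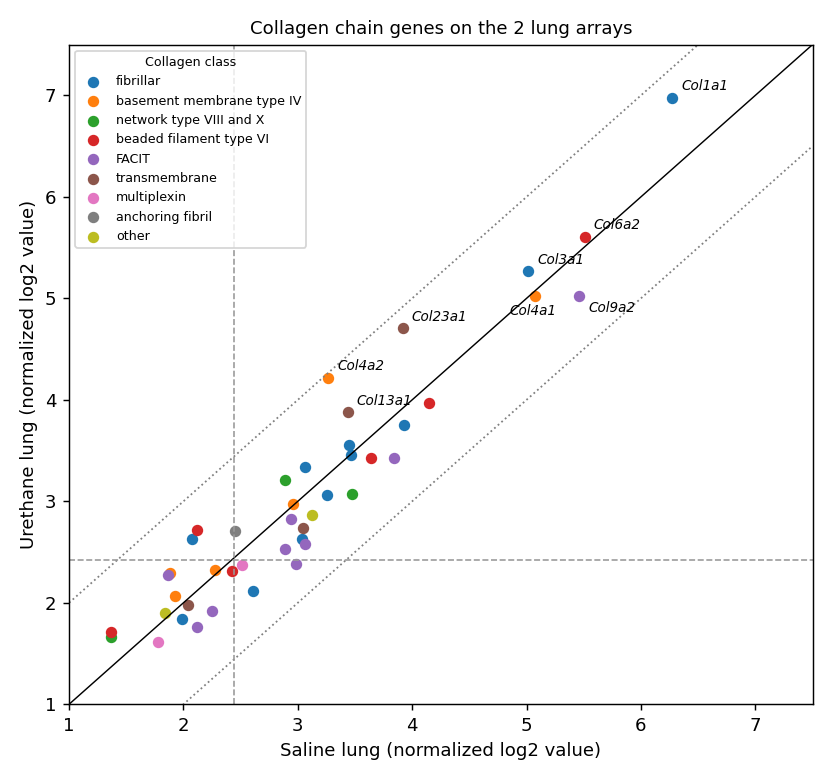
Normalized log2 values of the 44 collagen chain genes on the saline lung (x axis) and the urethane lung (y axis), coloured by class; the solid line is equality, dotted lines are 2-fold differences and dashed lines the background marks (2.44 and 2.42). All chains above a mark lie within the dotted lines, with Col4a2 closest to the upper one.

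The genes that hydroxylate and glycosylate collagen chains did not follow the chains themselves in FULA 1. Of 14 such genes, 5 were called higher in FULA 1 than in the saline lung and 1 lower, where 10.9% of all genes were higher and 11.2% lower. Against the urethane lung 6 were higher and 1 lower, where 10.4% of all genes were higher and 9.79% lower. The galactosyltransferase Colgalt1, which starts the sugar chain on hydroxylysine, ranked at 96.4 on FULA 1, 84.0 on the urethane lung and 58.2 on the saline lung. In FULA 1 it was 5.36-fold higher than in the urethane lung and at least 17.0-fold higher than in the saline lung, and it was at least 3.17-fold higher in the urethane lung than in the saline lung. Plod2, a lysyl hydroxylase that sets the kind of cross-link, ranked at 89.9 on FULA 1, 68.2 on the urethane lung and 64.4 on the saline lung. In FULA 1 it was 4.02-fold higher than in the urethane lung and 4.63-fold higher than in the saline lung. P4ha1 and P4hb, the subunits of prolyl 4-hydroxylase, were 4.44-fold and 3.36-fold higher than in the saline lung, while the prolyl 3-hydroxylase family member P3h3 was 4.95-fold lower. P4hb also serves in protein folding at large, and P4ha1 is induced by low oxygen.

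The chaperones and carriers of procollagen were mixed. Serpinh1, the collagen chaperone HSP47, ranked at 84.5 on FULA 1, 88.5 on the urethane lung and 87.9 on the saline lung; its difference from the saline lung, -0.43, became 1.17 under the shift to a common median. Of 7 genes of folding and export, 2 were called higher than in the saline lung, where 10.9% of all genes were. These were Sec23a, a coat protein of transport vesicles, by 3.13-fold and Mia3, which loads large cargo such as procollagen, by at least 2.10-fold. None of the 7 was called lower than in the saline lung, and Creb3l1 was 2.32-fold lower than in the urethane lung. Among the propeptide proteinases and their enhancers, Bmp1 in FULA 1 was at least 2.85-fold higher than in the saline lung, Adamts14 2.36-fold lower and Pcolce2 3.84-fold lower. Against the urethane lung the difference of Pcolce2, -1.70, became 0.05 under the shift to a common median. Bmp1 was also at least 2.28-fold higher in the urethane lung than in the saline lung.

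Cross-linking enzymes went both ways. Loxl4 in FULA 1 was at least 3.79-fold higher than in the saline lung, Loxl1 3.03-fold lower and the transglutaminase gene Tgm2 5.98-fold lower. Lox, the founding lysyl oxidase, was above the mark on the urethane lung alone, with ranks of 23.9 on FULA 1, 62.0 on the urethane lung and 47.7 on the saline lung. The small proteoglycans that coat collagen fibrils were lower in FULA 1 than in either lung in 5 of 8 cases, and the other 3, Lum, Kera and Aspn, were below the mark on all arrays. Of all genes, 11.2% were called lower than in the saline lung and 9.79% than in the urethane lung. Dcn ranked at 36.4 on FULA 1, 97.5 on the urethane lung and 98.1 on the saline lung. In FULA 1, Ogn was at least 61.0-fold lower than in the saline lung, Dcn at least 45.2-fold and Bgn 28.1-fold.

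Collagen receptors and proteinases differed in direction, and so did the integrin chains among them. Itga2, the collagen-binding alpha chain of epithelium and platelets, ranked at 98.6 on FULA 1, 60.3 on the urethane lung and 54.3 on the saline lung, and in FULA 1 was at least 44.0-fold higher than in the saline lung. Its partner Itgb1 in FULA 1 was 5.19-fold higher than in the saline lung and 2.10-fold higher in the urethane lung than in the saline lung. Itga1 in FULA 1 was 2.51-fold lower than in the urethane lung and was not called against the saline lung. Itga11 was below the mark on FULA 1, with bounds of -0.48 against the urethane lung and -0.80 against the saline lung (log2). The fibroblast collagen receptors Ddr2 and Mrc2 in FULA 1 were 2.13-fold and at least 4.15-fold lower than in the saline lung. Mmp2, a gelatinase, was 8.59-fold lower and the inhibitor Timp3 3.98-fold lower, while Mmp14, the membrane-bound collagenase, was 2.08-fold higher than in the saline lung but differed by only 0.19 (log2) from the urethane lung, a difference that turned to -0.12 with the lowess correction.

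**Figure D4:**
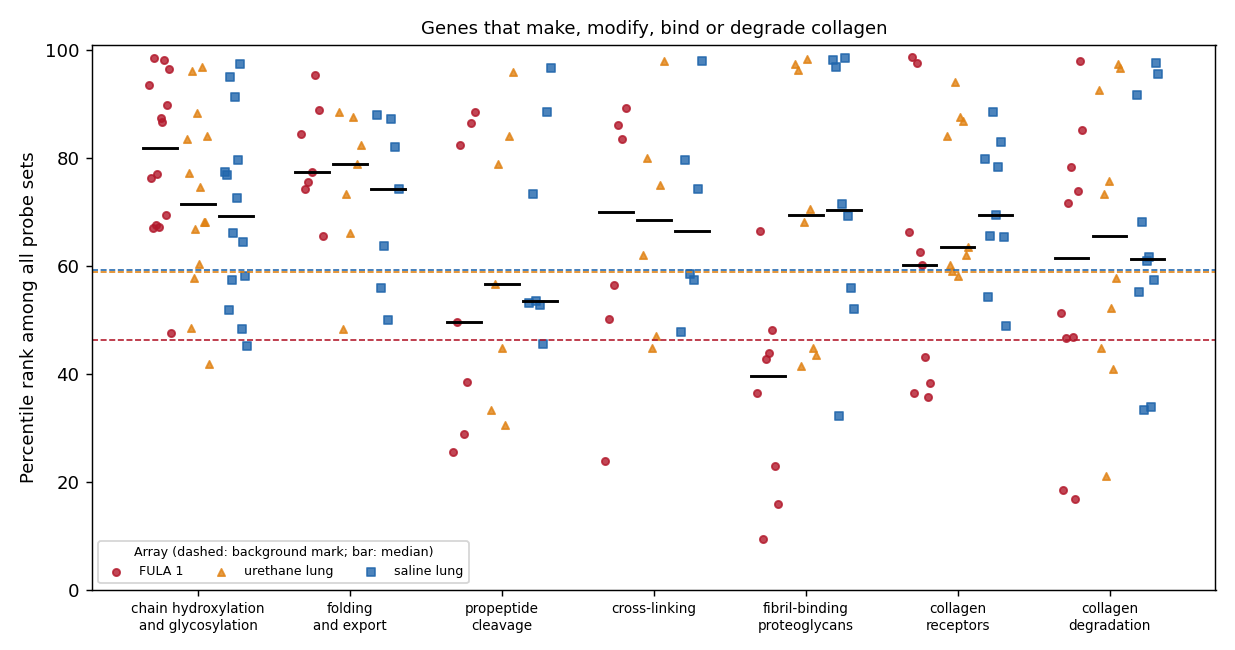
Percentile rank of the genes of 7 lists that make, modify, bind or degrade collagen, on FULA 1 (circles), the urethane lung (triangles) and the saline lung (squares); black bars are medians and dashed lines the background marks. The median for chain hydroxylation and glycosylation is 81.9 on FULA 1, 71.4 on the urethane lung and 69.3 on the saline lung, and that for fibril-binding proteoglycans 39.6, 69.4 and 70.4.

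Marker lists of collagen-making cells and of other lung cells both held genes called lower on FULA 1. Of all genes, 11.2% were called lower and 10.9% higher than in the saline lung. Against the urethane lung these shares were 9.79% and 10.4%. Of 8 fibroblast markers, 7 were above the mark on each lung and 3 on FULA 1, and 4 were called lower in FULA 1 than in saline lung, 5 than in the urethane lung, of which Pdgfra, at -1.29, became 0.24 under the shift to a common median. The median rank of the fibroblast list was 42.7 on FULA 1, 91.5 on the urethane lung and 87.7 on the saline lung. On FULA 1 the list ranged from 9.45 for Lum to 81.5 for Pdgfra, and Pdgfrb, Tcf21, Dpt, Mfap4 and Lum were below the mark. Fbln1 went the other way, with ranks of 76.5 on FULA 1, 65.9 on the urethane lung and 72.9 on the saline lung. It differed by 0.68 from the urethane lung and by 0.26 from the saline lung (log2), both under the threshold. Of 6 smooth muscle markers 5 were lower than in the saline lung, with a median rank of 52.6 on FULA 1, 82.8 on the urethane lung and 84.3 on the saline lung. All 6 endothelial markers were lower, ranking from 29.6 to 58.1 on FULA 1, from 91.7 to 97.7 on the urethane lung and from 91.1 to 98.2 on the saline lung. Of 6 alveolar type I markers 5 were lower than in the saline lung, as were 5 of 6 alveolar type II markers and 3 of 5 mesothelial markers, while the mesothelial marker Msln ranked at 96.7 on FULA 1. All 6 epithelial markers were above the mark on FULA 1, with 3 called higher and 1 lower than in the saline lung, and 3 higher and 2 lower than in the urethane lung. One of the higher markers, Cdh1, fell to 0.28 against the saline lung and 0.01 against the urethane lung with the lowess correction. Krt8 ranked at 99.7 on FULA 1, while Cldn7 was 3.74-fold lower there than in the urethane lung and 4.70-fold lower than in the saline lung. The part of these cell types in the collagen differences was not tested. Between the lungs the median difference of the fibroblast list was -0.18 (urethane lung minus saline lung). Of its 8 genes 0 were called, where 1.18% of all genes were called higher and 0.433% lower. Pdgfra lay just under the threshold at 0.99, and past it under the other scalings, from 1.02 to 1.06.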

How the data were processed

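Total RNA, isolated with Trizol and spin columns, was biotinylated with a whole-transcript kit, per the labels' protocols. The authors deposited log2 values, 1 for each probe set on each of 3 arrays, made with RMA per the submitters' processing notes. The design text names GeneSpring 12.5 GX. Why the columns lie on different scales, and whether any was centred, is unknown. Columns of other samples numbered 0.

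Of the probe sets, 23521 carried 1 symbol in the platform annotation, and 1814 carried several and name no gene. Entrez identifiers matched 23328 to RefSeq (GRCm38.p6), all 44 chains among them. Quantile normalization used the mean of the 3 sorted columns, with ties at their mean rank, and values of a gene's probe sets were averaged (Python 3.11.15, pandas 2.3.3). A chain above its mark whose held difference pointed the other way also has no size. The calculation was tested on simulated data. With 1 array per group no p-value or error exists, and the precision is limited by that number. Alternatives were the deposited values, a shift to a common median, the FULA 1 quantiles as target, a lowess correction (span 0.3), thresholds of 1.5-fold and 4-fold, values not held at the mark, marks at the 90th and 99th percentile, and the brightest probe set.

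Every chain is accounted for. From each list of other collagen genes (61 of 66 analysed here) the text names the called genes against the saline lung, at most 3 highest and 3 lowest, and always Serpinh1, Lox, Plod2, P4ha1, Itga2 and Mmp14; some are given by count alone. Creb3l1, Itga1, Itga11 and single markers were named after their values were seen. The chains and lists were chosen with earlier results of these data known. Promoter windows are from RefSeq and matched 35 of 44 chains, and those printed were chosen with the values known.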

Additional observations from a re-analysis of the deposited data

How the results depend on the processing

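No paired analysis was possible because each group holds 1 array, and for the same reason no replicate could be left out. As deposited, 20 chains were higher in the urethane lung than in the saline lung, 23 higher in FULA 1 than in the saline lung and 22 higher than in the urethane lung, with 0 lower in each; the median of all genes then differed by 1.09, 4.80 and 3.69 in these comparisons. The shift to a common median gave 3 chains higher and 8 lower for FULA 1 against the saline lung, and 3 higher and 9 lower against the urethane lung. With the quantiles of FULA 1 as the target 1 chain was higher in each of the 3 comparisons. Of all genes, 2.66% were then higher in the urethane than in the saline lung. FULA 1 then had 14.3% of all genes higher against the saline lung and 13.7% against the urethane lung. It also had 23 chains lower against the saline lung and 21 against the urethane lung, where 16.9% and 15.1% of all genes were. At 1.5-fold 3 chains were higher in the urethane lung than in the saline lung, 3 in FULA 1 than in the saline lung and 1 in FULA 1 than in the urethane lung, where 4.50%, 17.7% and 17.4% of all genes were higher; 24 and 20 chains were then lower in FULA 1 against the saline and the urethane lung, where 19.3% and 17.3% of all genes were. At 4-fold 4 were lower in FULA 1 than in each lung, where 3.01% of all genes were lower than in the saline lung and 2.75% than in the urethane lung. With the mark at the 99th percentile 8 chains were lower in FULA 1 than in each lung. Of all genes, 8.35% were then lower than in the saline lung and 7.29% than in the urethane lung. Above this mark stood 8 chains on FULA 1, 13 on the urethane lung and 12 on the saline lung. The shares of all genes above it were 45% on FULA 1, 28.1% on the urethane lung and 27.9% on the saline lung. The cause of these changes was not tested, apart from the stricter mark and fold, which leave fewer chains to call by construction. The counts of called chains stayed within 1.5 times of those reported with the lowess correction, without holding at the mark, with the mark at the 90th percentile and with the brightest probe set. Of the 18 chains lower than in the saline lung, 8 stayed at 2-fold under the shift and 10 with lowess, and of the 14 lower than in the urethane lung, 9 and 12. None of them changed direction under the shift, the FULA 1 quantiles, lowess or the brightest probe set. Some deposited values are coarse: 18 of the 47 probe sets shared their deposited value with another probe set on the urethane lung, 14 on the saline lung and 8 on FULA 1. This held at high ranks too. On the urethane lung Col3a1 (rank 91.9) and Col9a2 (90.6) each shared a value with 70 other probe sets. Col1a1 (97.4) did so with 11.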
